A study of Mus musculus with 12 samples.

Results

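Oxidative phosphorylation genes of the mouse thoracic aorta were followed across 4 groups of RNA-seq libraries, as the genes that encode the 5 protein complexes of the inner mitochondrial membrane. A gene was taken where its symbol began with mt-, or with Nduf followed by a, b, c, s or v, with Uqcr, with Cox and a digit from 4 to 8, or with Atp5, or where it was Sdha, Sdhb, Sdhc or Sdhd, and processed pseudogene symbols were left out. The rule found 105 genes of 27933 in the count table, 13 encoded by mitochondrial DNA and 92 by the nucleus. It looked at names only and used no measured value. It misses Cyc1, the cytochrome c1 subunit of complex III, whose symbol lies outside it, and it takes in some genes that are not subunits, namely 7 complex I assembly factors (Ndufaf genes), Atp5sl, Atp5s and the supercomplex factor Cox7a2l.

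Oxidative phosphorylation burns NADH and succinate with oxygen and stores the energy as ATP. Complex I takes electrons from NADH and complex II from succinate, complex III passes them to cytochrome c, complex IV gives them to oxygen, and complex V, the ATP synthase, uses the proton gradient that complexes I, III and IV build. The subunits come from separate genomes. A small core is transcribed inside the mitochondrion as long RNAs that are then cut apart, while the other subunits are transcribed in the nucleus and imported, so that the complexes need both supplies. Smooth muscle of the aortic wall holds few mitochondria beside brown fat, which lies around the thoracic aorta, is packed with them and is marked by the uncoupling protein Ucp1.

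The C57BL/6J mice were wild type (WT) or carried a label of knockout (KO) for the alpha7 subunit of the nicotinic acetylcholine receptor, were put in nicotine vapor or room air at 5 months of age for 12 weeks, and were 8 months old when the thoracic aorta was taken. Library numbers are those of the labels. WT mice gave libraries 8, 9 and 10 in air and 6, 11 and 12 in nicotine, and KO mice gave 1, 2 and 7 in air and 3, 4 and 5 in nicotine, and values below follow that order. The labels do not say which part of the receptor gene was removed, nor that each library is a separate mouse, so p-values measure how far libraries of a group differ, which may be technical in part. Aortas were cleaned of fat before freezing, per the labels, and RNA was made into libraries with a low-input full-length kit that does not mark the strand.

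Chrna7, the gene that encodes the alpha7 subunit, was scarce and was not measurably lower in the libraries labelled KO. Its raw counts were 22, 35 and 37 in WT air against 9, 18 and 26 under nicotine, and 26, 18 and 28 in KO air against 25, 8 and 21 under nicotine. The log2 fold change of KO against WT was -0.36 ± 0.45 in air (SE, edgeR adjusted p = 0.995) and 0.07 ± 0.47 in nicotine (0.982). The counts therefore do not check the genotype labels, and WT and KO below mean the libraries labelled so.

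Each library held 10240031 (WT nicotine 6) to 12628323 (WT air 9) counts. The smooth muscle gene Myh11 lay between 10272 and 21757 CPM (a gene's counts scaled to a common library total, with edgeR's TMM factors), as the tissue label says. All 12 libraries also held fat transcripts. Ucp1 read 926, 153 and 405 in WT air against 423, 436 and 530.3 under nicotine, and 466, 917 and 423 in KO air against 825, 1027 and 723 under nicotine CPM. WT air 8 and WT air 9, from 1 group, sit near opposite ends of the series for fat markers and for the oxidative phosphorylation genes. Leaving them out changed several medians below, and those values are given beside them. In whole-tissue RNA, fewer cells of a type and less RNA per cell cannot be told apart.

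The 13 mitochondrial genes had very unequal levels. Per kilobase of transcript (mean over 12 libraries), mt-Cytb, the complex III cytochrome b, reached 9698 CPM, mt-Co1, the catalytic subunit of complex IV, 8308, and the complex I membrane subunits mt-Nd1, mt-Nd2, mt-Nd5, mt-Nd4 and mt-Nd6 7419, 5056, 3655, 3243 and 3037. The complex I subunit mt-Nd3 stood at 531 CPM per kilobase. The other 5 were far lower: mt-Co2 and mt-Co3 of complex IV at 48.8 and 36.9, mt-Atp6 and mt-Atp8 of complex V at 43.8 and 26.4, and mt-Nd4l of complex I at 20.1 CPM per kilobase. mt-Co1, mt-Co2 and mt-Co3 are subunits of the same enzyme and lie on the same strand of the mitochondrial genome, yet their levels differed by more than 2 orders of magnitude.

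The genes also differ in how unique their sequence is, though not always in step with their level. The mouse nuclear genome carries copies of mitochondrial DNA. Compared with GENCODE M21 transcripts (GRCm38), mt-Co2 matched the nuclear transcript Gm28661 on chromosome 1 at 100% identity over 99.6% of its length, mt-Co3 matched Gm28437 at 100% over 99.9%, mt-Atp6 matched Gm10925 at 100% over 99.6%, mt-Nd4l matched Gm10222 at 100% over 99%, and mt-Nd3 matched Gm28438 at 99.71% over 99.1%. Shorter near-identical stretches were found for mt-Nd4 (Gm28439, 63.6% of its length), mt-Co1 (Gm29216, 31.3%) and mt-Atp8 (Gm10925, 43 bases, 21.1%). Of these, mt-Atp8 was among the low genes, while mt-Nd4 and mt-Co1 were among the high ones. Only annotated transcripts were searched, not the rest of the nuclear DNA, so copied stretches may be longer than given. mt-Co1 also matched Gm13340 at 97.6% over 100% of its length. For mt-Cytb, mt-Nd1, mt-Nd2, mt-Nd5 and mt-Nd6 no stretch reached 99% identity, and the longest match of mt-Cytb, Gm11410, was 92.9% identical. A 100-base stretch of each shows what a read would meet in a low gene and in a high one, with differing bases in capitals.
mt-Co2: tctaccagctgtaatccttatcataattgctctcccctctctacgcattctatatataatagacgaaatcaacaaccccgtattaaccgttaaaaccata
Gm28661: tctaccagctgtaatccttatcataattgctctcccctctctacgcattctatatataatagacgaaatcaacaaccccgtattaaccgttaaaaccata
mt-Cytb: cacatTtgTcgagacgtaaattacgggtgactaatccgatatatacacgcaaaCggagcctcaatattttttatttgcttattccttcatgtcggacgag
Gm11410: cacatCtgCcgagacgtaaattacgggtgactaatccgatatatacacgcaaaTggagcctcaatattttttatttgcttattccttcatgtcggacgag
The mt-Co2 stretch holds 0 differences from its nuclear copy and the mt-Cytb stretch holds 3. None of these copies has a row in the count table. A count program can drop reads that fit more than 1 place, and how the authors treated such reads is not given in the sources used here, so the levels of mt-Co2, mt-Co3, mt-Atp6, mt-Atp8, mt-Nd3 and mt-Nd4l, and in part of mt-Nd4 and mt-Co1, are uncertain. The part of these copies in the low levels was not tested. Further limits apply to single genes. mt-Atp8 overlaps mt-Atp6 and mt-Nd4l overlaps mt-Nd4, and mt-Nd6 lies on the strand opposite to the other 12, so that without strand its reads cannot be told apart from RNA of the other strand.

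Library by library, mt-Cytb read 17400, 7139 and 8110 in WT air against 9084, 11762 and 10363 under nicotine, and 8222, 12328 and 9861 in KO air against 13052, 16464 and 9350 under nicotine CPM. WT air 8 was the highest and WT air 9 the lowest of the 12, and the groups overlapped. mt-Co1 read 19169, 7722 and 9471 in WT air against 10494, 14805 and 12424 under nicotine, and 9098, 13293 and 11070 in KO air against 16279, 20012 and 10201 under nicotine CPM, here with KO nicotine 4 above WT air 8. mt-Nd1 read 10794, 4723 and 5379 in WT air against 5963, 6408 and 5838 under nicotine, and 5752, 8263 and 6976 in KO air against 7776, 10178 and 7150 under nicotine CPM, and each KO nicotine library lay above each WT nicotine library. mt-Nd2 gave the same order between those groups, at 8537, 3326 and 3968 in WT air against 4107, 4683 and 4326 under nicotine, and 4230, 6164 and 5129 in KO air against 6019, 7638 and 4848 under nicotine CPM. The scarce mt-Co2 followed the same library pattern at its much lower level, with 48.3, 23.2 and 24 in WT air against 27.2, 33.8 and 32.3 under nicotine, and 24.1, 38.8 and 27 in KO air against 41.5, 49.4 and 30.7 under nicotine CPM. Across the 13 genes, the highest library was WT air 8 for 9 and KO nicotine 4 for 4, and the lowest was WT air 9 for 12 and KO air 1 for mt-Nd4l. The highest library exceeded the lowest by a median of 2.57-fold, from 2.13-fold (mt-Co2) to 3.89-fold (mt-Nd4l).

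The nuclear members were 36 subunits of complex I, 4 of complex II, 8 of complex III, 19 of complex IV and 15 of complex V, and 10 assembly factors or other proteins. Of the 105 members, 102 had enough counts to be tested, all 13 mitochondrial and 89 nuclear. The other 3 are tissue-restricted complex IV isoforms. Cox6a2, the heart and skeletal muscle form of subunit 6a, had raw counts of 8, 3 and 1 in WT air against 0, 1 and 0 under nicotine, and 2, 14 and 1 in KO air against 3, 2 and 2 under nicotine, and Cox7b2 and Cox8c, known from testis, had 1 read each, both in KO nicotine 4.

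In complex I the highest level per kilobase belonged to Ndufa6 (264 CPM per kilobase, mean of 12 libraries), a subunit near the quinone site. Ndufs1, which carries iron-sulfur clusters in the arm that oxidises NADH, read 213, 82.8 and 127 in WT air against 128, 189 and 169.8 under nicotine, and 132, 222 and 135 in KO air against 181, 292 and 128 under nicotine CPM, and its values ran 3.52-fold from WT air 9 to KO nicotine 4. In complex II, Sdha, the flavoprotein that oxidises succinate, was highest per kilobase (179.6) and read 612, 264 and 379 in WT air against 454, 624 and 519 under nicotine, and 442, 688 and 422 in KO air against 571, 902 and 372 under nicotine CPM. In complex III the hinge protein gene Uqcrh led (316 CPM per kilobase), while Uqcrfs1, the Rieske iron-sulfur subunit, had the widest spread of its complex, 3.73-fold. Uqcrfs1 read 191, 65 and 98 in WT air against 133, 155 and 124 under nicotine, and 111, 182 and 106 in KO air against 150.4, 242 and 110.5 under nicotine CPM. For Ndufs1, Sdha and Uqcrfs1, WT air 9 was the lowest library and KO nicotine 4 the highest.

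In complex IV, Cox6c was highest per kilobase (545) and read 408, 184 and 245 in WT air against 268, 385 and 309 under nicotine, and 268, 456 and 255 in KO air against 375, 547 and 262 under nicotine CPM. Cox4i1, the ubiquitous form of the regulatory subunit 4, read 275, 134 and 149.9 in WT air against 205, 254 and 246 under nicotine, and 169.8, 269.6 and 166 in KO air against 232, 326 and 161 under nicotine CPM, against 1.13 to 3.21 CPM for Cox4i2, a form known from lung and from low oxygen. In complex V, Atp5b, the catalytic beta subunit of the F1 head, led with 529 CPM per kilobase and read 1294, 547 and 728 in WT air against 859, 1240 and 1097 under nicotine, and 752, 1227 and 758 in KO air against 1157, 1735 and 769 under nicotine CPM. The c ring, the rotor that protons turn, is a single protein made from 3 genes, and these were far more even. Atp5g3, the most abundant of the 3 (98.5 CPM per kilobase, against 28.6 for Atp5g2 and 5.97 for Atp5g1), read 74.1, 67.9 and 64.3 in WT air against 69.8, 68.7 and 75.1 under nicotine, and 65.3, 71.7 and 73.5 in KO air against 64.5, 87.8 and 66.1 under nicotine CPM, a range of 1.37-fold.

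Summed over members, the nuclear genes moved between libraries about as much as the mitochondrial ones. The 13 mitochondrial genes summed to 76502, 31249 and 36798 in WT air against 39758, 50487 and 44086 under nicotine, and 37424, 54899 and 45003 in KO air against 59328, 72463 and 43361 under nicotine CPM, a range of 2.45-fold. They took 7.52% of all counts in WT air 8, the highest share. The 92 nuclear genes summed to 12426, 5973 and 7467 in WT air against 8754, 11209 and 10005 under nicotine, and 8034, 12673 and 8170 in KO air against 10792, 16050 and 8041 under nicotine CPM, a range of 2.69-fold. Both ends of the mitochondrial range lie inside the WT air group. Among nuclear members, 78 of 89 were highest in KO nicotine 4 and 67 of 89 were lowest in WT air 9. The highest library exceeded the lowest by a median of 2.61-fold for nuclear subunits and 1.97-fold for assembly factors and other members, against 1.94-fold for all 14621 tested genes.

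**Figure D1:**
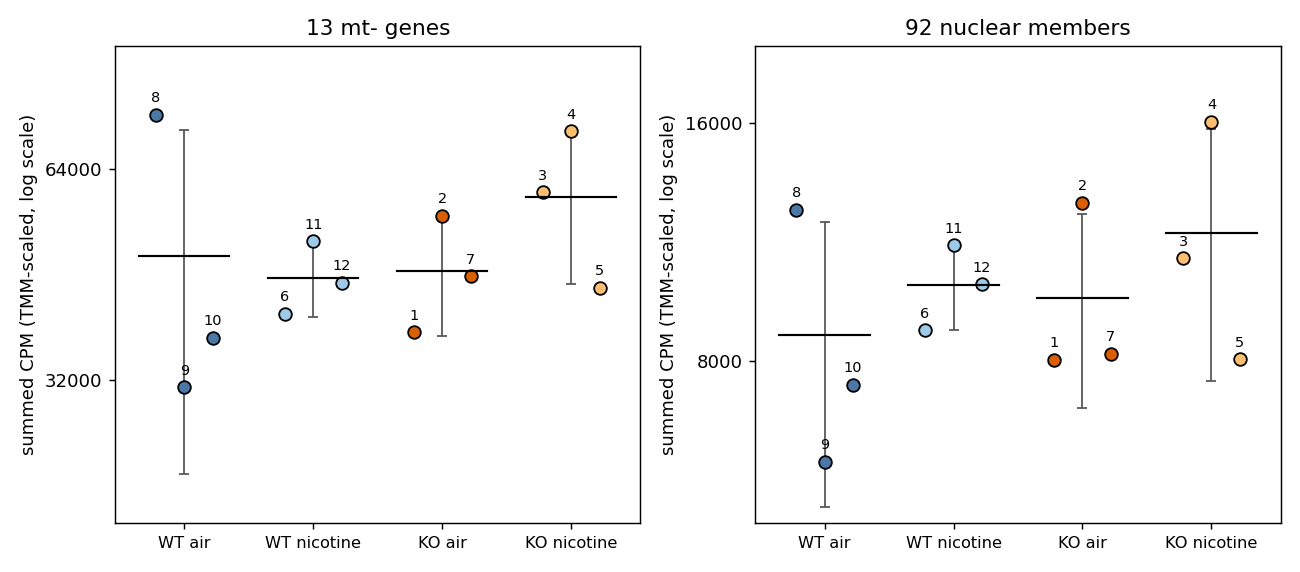
Summed CPM per library (log axis) for the 13 mitochondrial genes (left) and the 92 nuclear members (right), with library numbers, group means (lines) and SD (bars, n = 3). The spread inside groups, widest in WT air from 31249 to 76502 CPM for the mitochondrial genes, covers the distances between group means.

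No member passed the threshold for nicotine or genotype. Nicotine in WT was tested with edgeR's quasi-likelihood test with Benjamini-Hochberg adjustment over all 14621 genes, and 0 of 102 members reached an adjusted p under 0.05, where 0.0205% of all genes did. With all libraries and no covariate, an unadjusted p under 0.05 was reached by 2 members, against 9.84% of all genes. The unadjusted counts depended strongly on the setting, as given below. In KO the counts were 0 (all genes 0%) and 0 unadjusted (4.58%), for KO against WT in air 0 (0%) and 0 (4.36%), for KO against WT in nicotine 0 (0.00684%) and 2 (8.34%), and for the interaction, the difference between the nicotine effects, 0 (0%) and 0 (4.43%). DESeq2 and limma voom also called 0 members in each comparison. Of 23444 genes, DESeq2 called 102 for nicotine in WT, 0 for nicotine in KO and 12 for KO against WT in air. It called 75 for KO against WT in nicotine and 8 for the interaction. Of 14621 genes, limma voom called 3 for nicotine in WT, 5 for KO against WT in nicotine and 0 in the other comparisons. In the authors' deposited tables of nicotine against air, which list 103 members, 0 had an adjusted p under 0.05 in either genotype, and the lowest was 0.602 for Atp5g1 in WT and 0.997 for Atp5a1 in KO. Members had a median standard error of 0.31 on the log2 scale in each comparison of a pair of groups, and of 0.44 for the interaction, so that small differences were not detectable here.

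With nicotine in WT, the medians of mitochondrial and nuclear members lay on different sides of 0. The median log2 fold change was -0.10 for the mitochondrial genes, with 3 of 13 above 0, and 0.19 for nuclear members, with 76 of 89 above 0. All genes had a median of -0.0047 and 49.4% above 0. These medians turned with the libraries. Without WT air 8 they were 0.43 and 0.55, without WT air 9 they were -0.39 and -0.03, and limma voom put the mitochondrial median at 0.04. With the white adipocyte score of each library in the fit the medians were -0.59 and -0.28, and with the skeletal muscle score they were -0.24 (0 of 13 above 0) and 0.01 (50 of 89). The brown adipocyte score gave -0.12 (1 of 13) and 0.11 (68 of 89), and the cardiac muscle score 0.04 (7 of 13) and 0.28 (79 of 89). The number of members with an unadjusted p under 0.05 moved too. It was 23 of 102 without WT air 8, 1 without WT air 9 and 52 with the white adipocyte score. With the brown, skeletal and cardiac scores it was 1, 0 and 1. The shares of all genes in fits with altered settings are not given here. Marker lists of several cell types had medians away from 0 here, although 0 of their genes passed the edgeR threshold in this or the following comparisons. The white adipocyte markers (17 of 17 tested) summed to 2262 to 7758 CPM in WT air and 6788 to 8421 CPM in WT nicotine, with 16 of 17 above 0 (median log2 fold change 0.73, 2 with an unadjusted p under 0.05). Macrophage markers (14 of 14) summed to 275 to 298 and 436 to 617 CPM, with 14 above 0 (0.80, 10). Smooth muscle markers (15 of 15) summed to 39381 to 59146 and 35851 to 41126 CPM, with 14 below 0 (-0.46, 7), and skeletal muscle markers (16 of 17) to 47.8 to 292 and 57.5 to 378 CPM, with 12 above 0 (0.72, 2). The part of smooth muscle and macrophages in the medians was not tested.

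The nuclear members with the lowest unadjusted p in that comparison were Atp5g1 and Ndufa11. Atp5g1, 1 of the 3 c ring genes, read 16.6, 18.8 and 20.5 in WT air against 14.4, 13.2 and 14.5 under nicotine, and 15.2, 15 and 21.1 in KO air against 15.1, 11.1 and 16.3 under nicotine CPM. Each WT nicotine library lay below each WT air library, and the log2 fold change was -0.41 ± 0.19 (SE, edgeR adjusted p = 0.504). Its value for nicotine in KO was -0.27 ± 0.19 (edgeR adjusted p = 0.878), with overlapping groups. Ndufa11, a subunit of the complex I membrane arm, read 61.4, 49.3 and 54.4 in WT air against 41.4, 46.1 and 49.2 under nicotine, and 57.3, 63.8 and 52.7 in KO air against 51.4, 62.2 and 56.2 under nicotine CPM, again with no overlap in WT, at -0.27 ± 0.12 (edgeR adjusted p = 0.506). These are the 2 members without overlap toward lower values in WT, where 6.05% of all genes had none, and 0 members had none toward higher values, against 7.13%. The lowest p in complexes II, III and IV belonged to Sdha (0.35 ± 0.36), Uqcrq (0.38 ± 0.39), a small subunit of the bc1 complex, and Cox6b2 (0.84 ± 0.49), an isoform known from testis that read 0.807 to 3.27 CPM.

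With nicotine in KO, members of both genomes had fitted values above 0, 13 of 13 mitochondrial (median log2 fold change 0.36) and 80 of 89 nuclear (0.23), against 51.5% of all genes. The nuclear value rested on KO nicotine 4. Without it, 32 of 89 nuclear members and 11 of 13 mitochondrial genes were above 0, with medians of -0.04 and 0.14. With the white adipocyte score in the fit, 8 of 13 mitochondrial (0.02) and 23 of 89 nuclear values (-0.08) were above 0, and with the brown adipocyte score 11 of 13 (0.05) and 37 of 89 (-0.02). The skeletal muscle score gave 13 of 13 (0.18) and 65 of 89 (0.08), and the cardiac muscle score 13 of 13 (0.47) and 85 of 89 (0.37). In this comparison white adipocyte markers were above 0 in 17 of 17 (median log2 fold change 0.63, 0 with an unadjusted p under 0.05) and summed to 4211 to 7713 CPM in KO air and 4414 to 12332 CPM in KO nicotine. Brown adipocyte markers were above 0 in 11 of 13 (0.65, 2) and summed to 1129 to 2110 and 1487 to 2533 CPM. Those 2 went opposite ways, Slc27a2 up (1.71 ± 0.74) and Elovl3 down (-1.91 ± 0.84). Skeletal muscle markers were above 0 in 12 of 16 (1.53, 8) and summed to 71.7 to 1346 and 146 to 625 CPM, hepatocyte markers were above 0 in 10 of 10 (1.55, 0), and smooth muscle markers were below 0 in 14 of 15 (-0.35, 3). Ndufaf6, a complex I assembly factor, had the lowest p, at 0.74 ± 0.36 (edgeR adjusted p = 0.878), and read 7.57, 3.21 and 3.71 in WT air against 3.25, 3.77 and 4.25 under nicotine, and 3.23, 4.96 and 2.64 in KO air against 7.60, 6.10 and 4.45 under nicotine CPM. Sdhb (0.49 ± 0.40), Uqcrc1 (0.40 ± 0.36) and Cox5b (0.36 ± 0.35) had the lowest p of complexes II, III and IV. In this comparison 0 members were without overlap in either direction, where 5.13% of all genes were toward higher and 5.55% toward lower values.

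The libraries labelled KO were compared with those labelled WT in each exposure, with the reserve that Chrna7 does not separate them. The air comparison shares WT air and KO air with the nicotine comparisons, so the values are set side by side. In air, 2 of 13 mitochondrial genes (median log2 fold change -0.10) and 75 of 89 nuclear members (0.15) were above 0, against 50.2% of all genes. Without WT air 8 the medians were 0.43 and 0.53, without WT air 9 they were -0.33 (0 of 13) and -0.04 (34 of 89), and without KO air 2 they were -0.27 and -0.08. With the white adipocyte score in the fit they were -0.26 and -0.04, and with the brown score -0.27 and -0.03. The skeletal muscle score gave -0.19 and 0.06, and the cardiac muscle score -0.15 and 0.09. Among the marker lists, white adipocyte markers were above 0 in 15 of 17 (0.25), brown in 6 of 13 (-0.01), hepatocyte in 9 of 10 (1.76) and smooth muscle in 0 of 15 (-0.11). In nicotine, 13 of 13 mitochondrial genes (0.35) and 85 of 89 nuclear members (0.21) were above 0, against 52.3%. Without KO nicotine 4 these were 10 of 13 (0.16) and 26 of 89 (-0.08), and with the brown adipocyte score in the fit the medians were -0.09 and -0.13. The other scores left both medians above 0. They were 0.29 (12 of 13) and 0.17 (83 of 89) with the white adipocyte score and 0.22 (12 of 13) and 0.10 (80 of 89) with the skeletal muscle score. With the cardiac muscle score they were 0.34 (12 of 13) and 0.17 (84 of 89). Members with an unadjusted p under 0.05 numbered 14 of 102 in air without WT air 8, and 20 in nicotine with the white adipocyte score. The brown adipocyte markers (13 of 14 tested) summed to 1323 to 1540 CPM in WT nicotine and 1487 to 2533 CPM in KO nicotine, with 12 of 13 above 0 (median log2 fold change 0.40, 1 with an unadjusted p under 0.05). Hepatocyte markers (10 of 10 tested) summed to 33.2 to 160 and 59.6 to 2746 CPM, with 10 above 0 (3.36, 9). Skeletal muscle markers were above 0 in 15 of 16 (1.06, 0), while macrophage markers were below 0 in 13 of 14 (-0.39, 4) and fibroblast markers in 12 of 12 (-0.30, 3). The part of hepatocyte, macrophage and fibroblast RNA in these medians was not tested.

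In air the lowest p was that of Ndufv3, a subunit of the arm of complex I that oxidises NADH, at 0.37 ± 0.20 (edgeR adjusted p = 0.995). In nicotine it was that of Atp5sl, a complex I assembly factor also called Dmac2 whose older name points to complex V, at 0.60 ± 0.24 (edgeR adjusted p = 0.503), with 11.2, 12.4 and 14.5 in WT air against 10.7, 13.8 and 9.55 under nicotine, and 10.1, 15.9 and 16.2 in KO air against 16, 22.5 and 13.4 under nicotine CPM. Ndufa11 stood at 0.31 ± 0.12 (edgeR adjusted p = 0.513) in nicotine. mt-Nd1 (0.46 ± 0.28, edgeR adjusted p = 0.738), mt-Nd2 (0.50 ± 0.31), Ndufa11 and Ndufaf6 (0.68 ± 0.36) were the 4 members whose KO nicotine libraries each lay above each WT nicotine library, where 5.8% of all genes did, and 0 members lay wholly below, against 5.59% of all genes. In air 0 members were without overlap, against 5.74% of all genes toward higher and 6.06% toward lower values.

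For the interaction, 13 of 13 mitochondrial genes (median 0.46) and 63 of 89 nuclear members (0.06) were above 0, where 52.9% of all genes were. The mitochondrial median was -0.03 without WT air 8 and ran from 0.29 to 0.67 with any other library left out. The nuclear median was -0.30 (11 of 89 above 0) without WT air 8, 0.24 (82 of 89) without WT air 9, -0.22 (16 of 89) without KO nicotine 4 and 0.28 (83 of 89) without KO air 2, and with limma voom it was -0.03 (36 of 89), so that it held no direction. Macrophage markers were below 0 in 13 of 14 (median -0.72, 6 with an unadjusted p under 0.05) and hepatocyte markers above 0 in 10 of 10 (1.52, 0). The highest single values were those of Ndufaf6 (1.10 ± 0.52) and mt-Nd4l (1.10 ± 0.66), the latter with 2.97 to 11.6 CPM per library, and the lowest was that of Cox6b2 (-1.09 ± 0.70). Averaged over genotypes, nicotine gave 0 members past the edgeR threshold (0% of all genes) and 1 with an unadjusted p under 0.05 (10.9% of all genes), Atp5g1 at -0.34 ± 0.13 (edgeR adjusted p = 0.396). Averaged over exposures, KO against WT gave 0 (0%) and 3 (8.41%), Ndufv3, Atp5sl and Ndufa11. Without WT air 8 the unadjusted counts were 43 of 102 for averaged nicotine and 22 for averaged KO against WT. With the white adipocyte score they were 32 and 6, and 19 for the interaction.

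**Figure D2:**
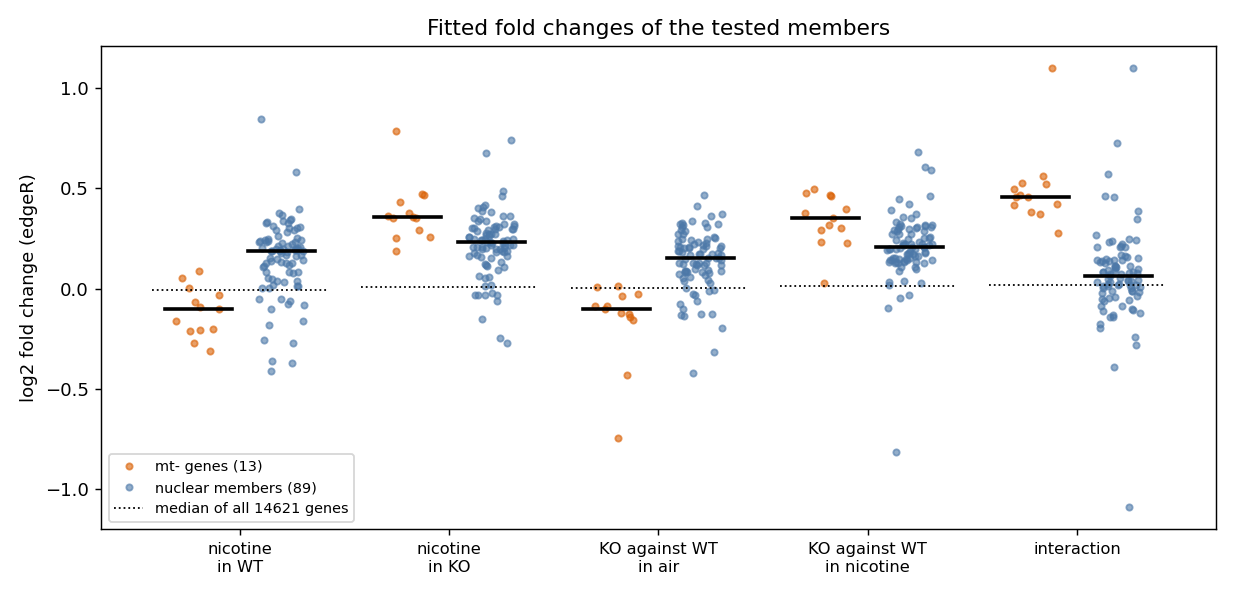
Fitted log2 fold changes (vertical axis) of the 13 mitochondrial genes (orange) and 89 tested nuclear members (blue) in 5 comparisons, with medians (black lines) and the median of all 14621 genes (dotted). Nicotine in WT puts the medians at -0.10 and 0.19, nicotine in KO at 0.36 and 0.23, and 0 of the points passed the edgeR threshold.

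The balance between the genomes can be read inside a library, where neither depth nor scaling enters. The log2 ratio of summed mitochondrial to summed nuclear counts was 2.62, 2.39 and 2.30 in WT air against 2.18, 2.17 and 2.14 under nicotine, and 2.22, 2.12 and 2.46 in KO air against 2.46, 2.17 and 2.43 under nicotine. The WT nicotine libraries were close together and each lay below each WT air library. The KO groups overlapped with each other, with WT air and with WT nicotine. The WT mean was 2.44 ± 0.17 in air and 2.16 ± 0.02 under nicotine, and the KO mean was 2.27 ± 0.18 in air and 2.35 ± 0.16 under nicotine (SD, n = 3). Mitochondrial counts per nuclear count, averaged over the libraries of each group without logs, were 5.44, 4.48, 4.83 and 5.13 in the same order.

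Nicotine minus air was -0.27 in WT (pooled SD 0.12) and 0.09 in KO (0.17), KO minus WT was -0.17 in air (0.17) and 0.19 in nicotine (0.11), and the interaction was 0.36 (0.15). Only the WT nicotine contrast had groups without overlap, and because the genes were chosen with earlier results known, no test was made. Leaving out each library in turn kept the WT difference between -0.34 and -0.18 and the interaction between 0.27 and 0.46. Summing other sets of genes, such as the mean of log2 CPM over members or the mitochondrial genes with no near-identical copy, gave -0.37 to -0.20 and 0.35 to 0.41. WT nicotine libraries also held more macrophage marker counts than WT air libraries, as given above, and their part in the ratio was not tested.

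**Figure D3:**
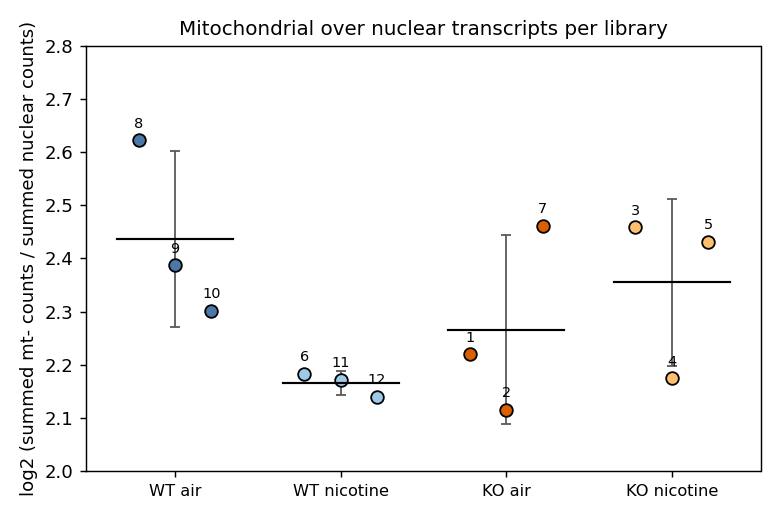
Log2 ratio of summed mitochondrial to summed nuclear member counts in each library (points, numbered), with group mean (line) and SD (bar, n = 3). The 3 WT nicotine libraries lie between 2.14 and 2.18, below the WT air libraries at 2.30 to 2.62.

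Libraries of the same group differed in their fat transcripts. A brown adipocyte score was taken as the mean log2 CPM of 13 markers, none of them a member, and its slope was fitted in edgeR together with the 4 group means, so that it reads differences between libraries of the same group. This test was added after the data had been seen. The score ran from 4.2 (WT air 9) to 5.95 (KO nicotine 3). With it, 12 of 13 mitochondrial genes and 67 of 89 nuclear members rose (edgeR adjusted p under 0.05), where 4.76% of all genes rose, and 0 members fell, where 2.98% did. The median slope, in log2 CPM per log2 unit of score, was 0.77 for mitochondrial genes, 0.67 for nuclear members and -0.01 for all genes. Among the mitochondrial genes it ran from 0.62 ± 0.12 (mt-Nd1, edgeR adjusted p = 0.00650) to 1.09 ± 0.24 (mt-Nd4l, 0.0119), and mt-Atp8 did not pass (0.83 ± 0.25, 0.0589).

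**Figure D4:**
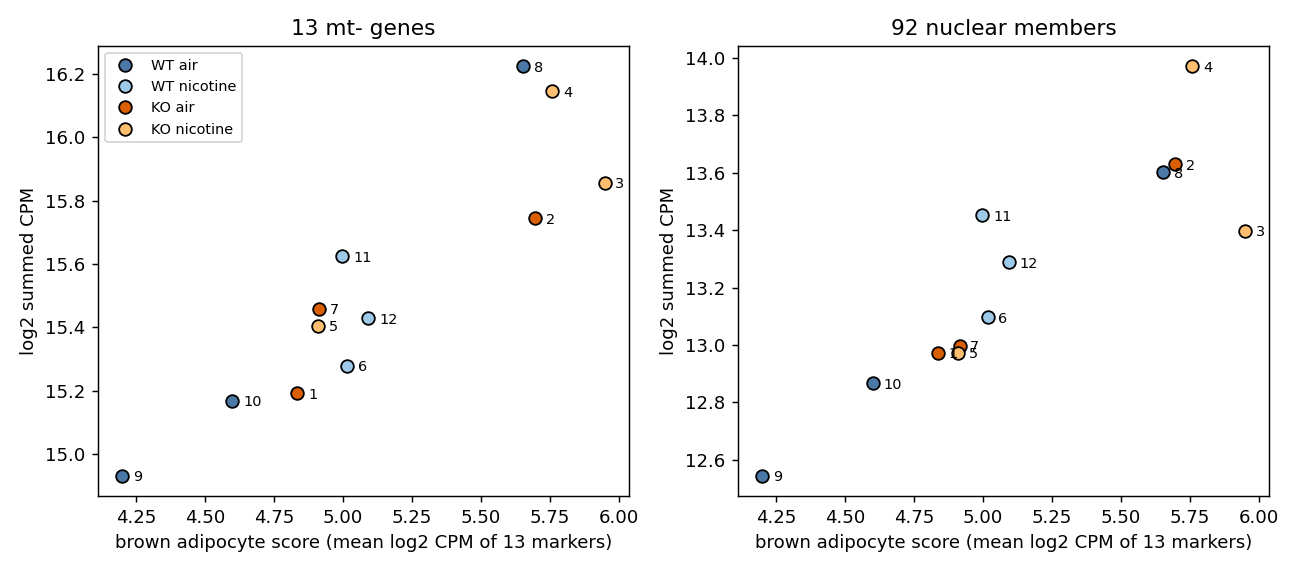
Log2 summed CPM of the 13 mitochondrial genes (left) and the 92 nuclear members (right) against the brown adipocyte score (mean log2 CPM of 13 markers), 1 point per library, coloured by group and numbered. WT air 9 has the lowest score and sums, and WT air 8, KO air 2, KO nicotine 3 and KO nicotine 4 hold the 4 highest scores.

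The rise ran through all 5 complexes. It was called for 29 of 36 nuclear subunits of complex I, 4 of 4 of complex II, 8 of 8 of complex III, 13 of 16 of complex IV and 11 of 15 of complex V. Within complex I it took 6 of 8 genes of the NADH-oxidising module, 7 of 8 of the quinone module and 16 of 20 of the membrane module, from Ndufb8 (1.04 ± 0.17, edgeR adjusted p = 0.00356), a membrane arm subunit, down to Ndufa11 (0.15 ± 0.09, 0.383), which did not pass. Sdhb, the iron-sulfur subunit of complex II, rose by 0.93 ± 0.15 (edgeR adjusted p = 0.00341) and Uqcrfs1 by 0.92 ± 0.15 (0.00356). In complex V the F1 head rose in 5 of 5 genes, with Atp5b at 0.85 ± 0.14 (edgeR adjusted p = 0.00361), the peripheral stalk in 3 of 4, and the c ring in 0 of 3, at -0.21 ± 0.15 for Atp5g1, 0.37 ± 0.13 for Atp5g2 and 0.11 ± 0.10 for Atp5g3 (edgeR adjusted p = 0.454, 0.112 and 0.575).

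Assembly factors and the other proteins that are not subunits passed in 2 of 10 cases, Ndufaf6 (0.83 ± 0.20, edgeR adjusted p = 0.0207) and Ndufaf1 (0.55 ± 0.15, 0.0401). Ndufaf3 stood at -0.04 ± 0.20, Ndufaf4 at 0.13 ± 0.17 and Cox7a2l at 0.28 ± 0.11. They are also scarce, at a median of 11.8 CPM against 89.1 CPM for nuclear subunits, and the difference between the classes was not tested.

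**Figure D5:**
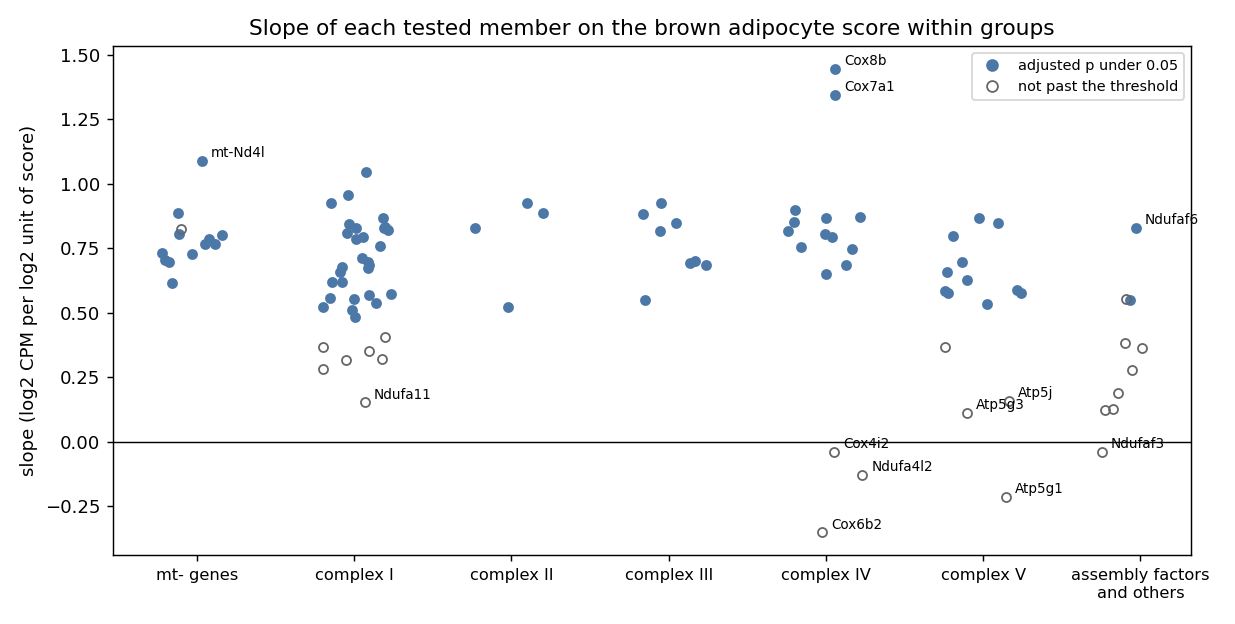
Slope of each tested member on the brown adipocyte score (log2 CPM per log2 unit of score, fitted within groups), by complex, with filled points past the edgeR threshold. Cox8b and Cox7a1 lie highest, at 1.44 and 1.34, and the open points, below the threshold, include 7 subunits of complex I, the 3 c ring genes, 3 complex IV isoforms and 8 of the 10 assembly factors and other proteins.

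The calls of a rise rest heavily on 1 library, the sizes of the slopes less so. Without WT air 8, 0 of 13 mitochondrial and 10 of 89 nuclear members passed, where 1.13% of all genes did, while the median slopes were 0.56 and 0.66, against 0.77 and 0.67 with all libraries. Leaving out any other library left 10 to 13 and 48 to 74, with 2.3% of all genes passing without WT air 9 and 6.44% without KO nicotine 3. Nor can the kinds of fat be separated. The white adipocyte score alone gave 13 of 13 and 72 of 89 rises (6.18% of all genes) and 0 falls (3.5%). With both scores in the same fit the brown score took 0 of 13 and 0 of 89 (0.0274%) and the white score 0 of 13 and 2 of 89 (0.28%). Muscle scores gave other results. On the skeletal muscle score 0 of 13 and 0 of 89 passed (0.0616% of all genes), likewise on the cardiac muscle score (0.0342%). With either beside it, the brown score took 11 of 13 mitochondrial genes, and 64 of 89 nuclear members with the skeletal (3.86% of all genes) or 53 of 89 with the cardiac score (3.72%).

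Complex IV has the best known tissue isoforms. The 11 widely expressed subunits rose with the brown score in 11 of 11 cases, from 0.65 ± 0.14 (Cox7a2) to 0.90 ± 0.16 (Cox5a). Of the 5 tested restricted isoforms, Cox8b and Cox7a1, the forms of subunits 8 and 7a used in heart, skeletal muscle and brown fat, had the highest slopes of all 102 members, 1.44 ± 0.19 (edgeR adjusted p = 0.00167) and 1.34 ± 0.22 (0.00489). Cox4i2 (-0.04 ± 0.37), Cox6b2 (-0.35 ± 0.42) and Ndufa4l2 (-0.13 ± 0.38), a low-oxygen counterpart of Ndufa4, did not pass (edgeR adjusted p = 0.972, 0.701 and 0.894). Their partners passed, with Cox8a at 0.79 ± 0.13, Cox4i1 at 0.76 ± 0.11, Cox6b1 at 0.85 ± 0.15, Cox6a1 at 0.75 ± 0.13 and Ndufa4 at 0.87 ± 0.15. The isoforms that did not pass have wide errors, and the differences between partners' slopes were not tested.

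Cox8b read 191, 33 and 70.0 in WT air against 102, 144 and 117 under nicotine, and 83.2, 196 and 98.6 in KO air against 159, 246 and 89.2 under nicotine CPM, the widest range of any tested nuclear subunit (7.47-fold), and Cox8a 202, 87.7 and 114 in WT air against 131, 160.4 and 153 under nicotine, and 127, 199.7 and 132 in KO air against 159, 247 and 115 under nicotine CPM. Taken per kilobase, Cox8b made up 36.5% of the pair in WT air 9 and 60.6% in KO nicotine 3. In WT this share averaged 48.0 ± 11.3% in air and 55.3 ± 2.20% under nicotine, and in KO it averaged 54.5 ± 5.07% and 58.4 ± 3.55% (SD, n = 3). Cox7a1 read 68.7, 14.5 and 31.6 in WT air against 30.5, 54 and 46.1 under nicotine, and 31.2, 74.2 and 36.7 in KO air against 54.6, 90.6 and 30.5 under nicotine CPM and made up 34.8% (WT air 9) to 59.3% (KO nicotine 4) of its pair with Cox7a2. In both pairs the groups overlapped. In contrast, Cox4i2 was 0.543 to 2.42% of its pair, Cox6b2 0.779 to 3.16% and Ndufa4l2 0.980 to 4.52%. The heart gene Myh6, whose muscle also uses Cox8b and Cox7a1, read 144, 61.6 and 7.42 in WT air against 6.69, 61.5 and 91.7 under nicotine, and 116, 397 and 12.9 in KO air against 101.5, 59.9 and 43.8 under nicotine CPM. Its highest library, KO air 2, lay below only KO nicotine 4 for both isoforms. KO air 2 had the highest cardiac muscle score (4.32) but also a high brown score (5.70). Another heart gene, Myl7, read 0.769 CPM there against 4.18 in WT air 8. On the cardiac score the slopes were 0.37 ± 0.23 for Cox8b and 0.37 ± 0.22 for Cox7a1 (edgeR adjusted p = 0.974 for both). Apart from these slopes, the part of heart muscle in the isoform levels was not tested. Skeletal muscle, which uses both isoforms too, also left transcripts in the libraries. Of its 17 markers, 16 were tested and 1, Tnnc2, was at 0 in all 12 libraries, and their sum ran from 47.8 to 1346 CPM, with most markers above 0 under nicotine in WT and in KO, as given above. The highest sum fell in KO air, where the markers Myh4 and Acta1 read only 0.083 to 1.37 and 1.70 to 2.91 CPM. By mean log2 CPM of the tested markers KO nicotine 3 was highest (3.74, against 1.81 in KO air 2). The sum is therefore no plain measure of skeletal muscle.

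The 250 bases upstream of the RefSeq start (GRCm38.p6) are shown for an isoform expressed in most tissues and for the pair with the highest slopes, written 5′ to 3′ on each gene's strand, with 2 motifs in capitals. Cox6a1 lies at chr5:115348959-115349208 on the minus strand, Cox7a1 at chr7:30183921-30184170 on the plus strand and Cox8b at chr7:140900447-140900696 on the minus strand.
Cox6a1: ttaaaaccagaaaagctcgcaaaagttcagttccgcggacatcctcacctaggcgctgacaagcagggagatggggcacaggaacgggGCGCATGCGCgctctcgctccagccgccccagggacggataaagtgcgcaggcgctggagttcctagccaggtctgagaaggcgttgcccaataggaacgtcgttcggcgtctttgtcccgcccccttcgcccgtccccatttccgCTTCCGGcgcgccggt
Cox7a1: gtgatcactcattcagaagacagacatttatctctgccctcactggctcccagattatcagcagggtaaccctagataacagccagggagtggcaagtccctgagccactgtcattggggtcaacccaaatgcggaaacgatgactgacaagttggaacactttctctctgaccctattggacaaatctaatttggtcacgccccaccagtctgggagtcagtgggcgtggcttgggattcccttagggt
Cox8b: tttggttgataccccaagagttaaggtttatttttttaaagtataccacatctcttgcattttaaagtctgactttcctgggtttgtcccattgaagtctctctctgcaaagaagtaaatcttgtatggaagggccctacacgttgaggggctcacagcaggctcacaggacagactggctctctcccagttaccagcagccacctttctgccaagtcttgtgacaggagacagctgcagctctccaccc
The motifs searched on both strands were the palindrome bound by NRF1, which is the first run of capitals in the Cox6a1 window, and CCGGAAG, bound by ETS factors such as GABP, whose reverse complement is the last run of capitals there. Both factors are known regulators of respiratory chain genes, and the motifs do not overlap. Cox6a1 holds both, which no other nuclear member did, so its window does not stand for widely expressed isoforms. The windows of Cox7a1 and Cox8b hold neither. Their widely expressed partners Cox7a2 and Cox8a are not among the members found with either motif. Of 73 nuclear members with a promoter entry, 5 (6.85%) held the NRF1 letters, namely Atp5g2, Atp5k, Cox6a1, Ndufa11 and Ndufaf4, and 13 (17.8%) the ETS letters. Among 27025 genes the shares were 0.877% and 7.83%. A match in these windows is a description of the letters.

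Other mitochondrial gene lists had 0 genes past the edgeR threshold in each comparison, where 0 to 0.0205% of all genes passed. The tricarboxylic acid cycle, which feeds complexes I and II, had 18 of 18 genes above 0 with nicotine in WT (median log2 fold change 0.23, 0 with an unadjusted p under 0.05) and 16 of 18 in KO (0.35, where 51.5% of all genes were above 0). Of 36 tested assembly factors of other names, 14 were above 0 with nicotine in WT (-0.10) and 32 for KO against WT in nicotine (0.32, 9 with an unadjusted p under 0.05, against 8.34% of all genes), where Cox15, which makes heme a for complex IV, had the lowest p. Mitochondrial ribosome genes, which translate the 13 mitochondrial messages, had 34 of 75 above 0 with nicotine in WT (-0.03) and 67 of 75 for KO against WT in nicotine (0.21, 7 with an unadjusted p under 0.05, against the same 8.34%). Electron carriers and ATP synthase regulators had 12 of 18 above 0 in the former (0.10) and 17 of 18 in the latter (0.34). For these comparisons 49.4% and 52.3% of all genes were above 0.

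Genes that keep and transcribe mitochondrial DNA had 14 of 29 above 0 with nicotine in WT (-0.01). For KO against WT in nicotine, 20 of 29 were above 0 (0.14, 4 with an unadjusted p under 0.05, against 8.34% of all genes). Mterf2 had the lowest p there (1.17 ± 0.30, edgeR adjusted p = 0.344), and stood at -0.79 ± 0.30 with nicotine in WT. Tfam, which packs mitochondrial DNA and starts its transcription, was nearly level, at 25.5, 23.2 and 24.1 in WT air against 26.6, 24.4 and 23 under nicotine, and 23.5, 26.2 and 21.4 in KO air against 24.9, 28.9 and 21.4 under nicotine CPM. Among 17 regulators of mitochondrial biogenesis, 11 were above 0 with nicotine in WT (median 0.13, 4 with an unadjusted p under 0.05, where 9.84% of all genes had one). The lowest p belonged to Sirt1, a deacetylase (0.55 ± 0.13, edgeR adjusted p = 0.199), followed by Nfe2l2 (0.46 ± 0.12) and Pprc1 (0.55 ± 0.16), a relative of the coactivator Ppargc1a. Ppargc1a itself, which drives mitochondrial genes in brown fat, read 61.8, 8.24 and 15.2 in WT air against 52.2, 51.3 and 53.7 under nicotine, and 16.8, 27.1 and 17 in KO air against 55.5, 48.5 and 18 under nicotine CPM and spanned the full range inside WT air.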

How the data were processed

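RNA of 12 thoracic aorta libraries was counted per gene. Per the labels, the authors counted reads with HTSeq against mm9 (submitters' processing notes), and the deposited values are raw whole-number counts per gene symbol. The aligner, annotation and versions were not given in the sources used here. The authors also deposited, per the file headers, tables of nicotine against air with log2 fold changes and their errors, a test score and unadjusted and adjusted p-values. Only their adjusted p-values are quoted. Their mean level column was not used.

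Counts were fitted with edgeR 4.0.16 (R 4.3.3; TMM, filterByExpr, robust quasi-likelihood, 4 group means, 8 residual degrees of freedom), with Benjamini-Hochberg adjustment over 14621 genes and a threshold of 0.05. Log2 scores used a prior count of 2. Transcript lengths were medians over GENCODE M21 basic protein-coding transcripts, and all 105 genes matched. Copies of mitochondrial genes were sought with BLAST+ 2.17.0 (identity of 90% or more). Alternatives used DESeq2 1.42.0, limma 3.58.1, other scalings, filters, covariates and left-out libraries. The procedure was tested on simulated counts.

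The members and gene lists were chosen with earlier results of these data known. Named were the mitochondrial genes, the complex IV and c ring isoforms with their partners, the nuclear member of each complex with the lowest p per comparison or the highest level per kilobase, and up to 3 genes per other list. Genes named outside this rule, such as Ndufs1, Uqcrfs1, Ndufb8, Cyc1, Tfam, Ppargc1a and the assembly factors with their slopes, were chosen after their values were seen. Totals of 10240031 to 12628323 counts per library set the precision.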

Additional observations from a re-analysis of the deposited data

How the results depend on the processing

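No paired analysis was possible because the groups share no library number. In 148 pairs of a comparison and an alternative setting (DESeq2, limma voom, other scalings and filters, no robust fit, only the compared groups, 4 covariates and each library left out), 0 members were called. Over all genes, the most called in such a pair was 105 of 23444 (DESeq2, KO against WT averaged over exposures), and many pairs called 0. Of 6512 values of the 44 tested named members in these pairs, 0 passed the threshold and 720 had another sign than the main value. The differences in the mitochondrial to nuclear ratio moved by less than the pooled SD. With each library left out, they ran from 0.01 to 0.19 for nicotine in KO, from -0.27 to -0.08 for KO against WT in air and from 0.14 to 0.28 in nicotine. The cardiac covariate, the slopes and the ratio without genes with nuclear copies were chosen after seeing the data. Depth did not limit the abundant members, but Cox6a2, Cox7b2 and Cox8c were too scarce to test.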
